A study of Mus musculus with 262 samples.

Results

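This report follows 7 mouse genes that mark simple epithelia, chosen by symbol and found in every table of the series: the keratins Krt7, Krt8, Krt18 and Krt19, the adhesion molecule Epcam, and the cadherins Cdh1 and Cdh16. They are 7 of 47069 genes in the tables of TPM (transcript abundances per length, scaled to a fixed total in each library) and 7 of 24111 in the read count table. The series holds 262 RNA samples from the kidneys of male mice aged 2 months, made to compare cell types along the collecting duct. The C57BL/6 samples are single cells (74 principal, 87 type A and 23 type B intercalated, 19 proximal tubule and 32 non-epithelial cells), sorted on DBA, c-Kit, both, or PNA and caught one to a chamber on a microfluidic chip, together with 2 bulk samples sorted on c-Kit, 2 sorted on DBA, and single tubules dissected by hand, 11 from the cortical collecting duct (CCD) and 8 from the cortical thick ascending limb (cTAL). Another 2 GFP-positive and 2 GFP-negative bulk samples came from the Atp6v1b1GFP strain, whose name joins GFP to a subunit gene of the proton pump of intercalated cells; the sort was on GFP fluorescence. No treatment is recorded for any group.

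Keratins are the intermediate filament proteins of epithelia. A filament is built from pairs of 1 type I and 1 type II chain, so a cell needs both kinds; Krt8 and Krt18 form the basic pair of simple epithelia, Krt7 is a further type II chain and Krt19 a further type I chain. Filaments end at desmosomes, where desmoplakin (Dsp) ties them to the cell junction. Cdh1 (E-cadherin) holds neighbouring cells together at adherens junctions through the catenins, Cdh16 (kidney-specific cadherin) sits on the basolateral membrane of tubule cells and lacks the usual catenin-binding tail, and Epcam is an adhesion and signalling protein that binds claudin 7 (Cldn7).

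On mouse build GRCm38, GENCODE places Krt7 at chr15:101411043-101430313 on the plus strand, Krt8 at chr15:101996698-102004482 on the minus strand and Krt18 at chr15:102028180-102032027 on the plus strand. Only 23.7 kb lie between Krt8 and Krt18, although 1 is a type II and the other a type I gene. Krt19 lies among the other type I genes, at chr11:100140810-100148665 (minus). Epcam lies at chr17:87635979-87651129 (plus), Cdh1 at chr8:106603351-106670246 (plus) and Cdh16 at chr8:104601911-104624396 (minus). An antisense gene (Gm671) overlaps Krt7 and a long noncoding gene on the other strand (Gm36026) overlaps Krt8, and a processed pseudogene of Krt8 stands on chromosome 7. The sources used here do not say whether counting used strand, so the values of Krt7 and Krt8 could hold reads of those neighbours.

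The bases before the transcription start are shown so that the neighbours Krt8 and Krt18 can be read beside Krt7 and Epcam. They come from RefSeq (GRCm38.p6), where 4 of the 7 genes were matched, and are written 5′ to 3′ on the strand of the gene. Capitals mark CACCTG or its reverse CAGGTG, the E-box bound by the Snail and Zeb repressors of epithelial genes. Each window was 250 bases long and is printed up to the first base that GENCODE annotates as untranslated region of that gene: chr15:101412153-101412401 (plus) for Krt7, whose RefSeq start lies inside the longer GENCODE gene, chr15:102004483-102004592 (minus) for Krt8, chr15:102027966-102028179 (plus) for Krt18 and chr17:87635729-87635978 (plus) for Epcam.
Krt7: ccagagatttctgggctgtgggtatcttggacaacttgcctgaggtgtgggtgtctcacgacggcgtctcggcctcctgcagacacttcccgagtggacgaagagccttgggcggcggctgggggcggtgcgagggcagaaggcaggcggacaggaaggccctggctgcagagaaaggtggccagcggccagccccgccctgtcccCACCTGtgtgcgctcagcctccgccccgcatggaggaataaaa
Krt8: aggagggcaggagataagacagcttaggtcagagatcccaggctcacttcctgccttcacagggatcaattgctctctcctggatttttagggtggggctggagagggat
Krt18: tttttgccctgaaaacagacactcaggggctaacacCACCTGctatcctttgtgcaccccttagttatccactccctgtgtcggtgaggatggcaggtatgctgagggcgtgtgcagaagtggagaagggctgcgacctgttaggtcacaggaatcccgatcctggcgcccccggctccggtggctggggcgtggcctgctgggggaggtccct
Epcam: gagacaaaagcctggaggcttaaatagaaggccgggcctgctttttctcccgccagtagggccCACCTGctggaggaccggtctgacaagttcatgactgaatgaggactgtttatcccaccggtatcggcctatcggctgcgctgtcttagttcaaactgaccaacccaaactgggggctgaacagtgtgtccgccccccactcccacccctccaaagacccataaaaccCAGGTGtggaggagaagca
Counting the last base before the RefSeq start as -1, the E-box began at -44 in Krt7, at -214 in Krt18, and at -187 and -19 in Epcam. The Krt8 window held 1 match, at -111, inside the annotated untranslated region that is not printed. So all 4 windows held the E-box, against 17.2% of 32851 windows of this length over the genome, with both strands searched. The GC box CCGCCC (either strand) was found 4 times before Krt7, once before Epcam and in neither Krt8 nor Krt18; 32.7% of all windows hold it. Neither TATAAA nor TGANTCA was found in the 4 windows. These matches are a description of the letters and not sites of binding.

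The cell types of the single cells are the names the authors gave. No animal is named for a cell, so each type counts as 1 sample and no difference between types was tested. Across cells, 6 of the 7 genes had their highest mean in principal cells, the water- and sodium-transporting cells of the collecting duct; Epcam was the exception, with its highest mean in type B intercalated cells. Krt18 reached a mean of 770 TPM in 74 principal cells, with a median of 595 TPM, while the other means were 217 TPM (87 type A cells), 153 TPM (23 type B), 164 TPM (19 proximal tubule) and 148 TPM (32 non-epithelial). The medians of those 4 types were 2.82, 27.2, 49.6 and 0.80 TPM. Type A cells were widely spread, with 61 of 87 cells at 1 TPM or more, 40 at 10 TPM or more and a highest value of 1492 TPM. The type A columns also fell into 2 blocks, a division seen in the data that the labels do not explain: Aqp2, a principal cell gene, was at 1 TPM in 9 of the first 37 columns and in 49 of the last 50. Krt18 had a median of 52.5 TPM (mean 288 TPM) in the first block and 1.85 TPM (mean 165 TPM) in the second. Its detection at 1 TPM was alike, in 26 of 37 and 35 of 50 cells. Krt7 had medians of 12.7 and 36.5 TPM in that order, Epcam 62.9 and 25.2 TPM, and Cdh16 55.7 and 86.4 TPM, while Krt8 (0.42 and 0.48 TPM) and Cdh1 (41.6 and 36.1 TPM) were close. The part of the blocks in the type A values was not tested.

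Krt7 separated the types in another way. Its mean was 293 TPM in principal cells, followed by 210 TPM (type B), 118 TPM (type A), 79.4 TPM (proximal tubule) and 63.3 TPM (non-epithelial). The median was highest in type B, at 177 TPM, with 149 TPM for principal and 19.3 TPM for type A cells. A TPM of at least 1, taken as detection, was reached by 22 of 23 type B cells (95.7%, exact Clopper-Pearson 95% interval 78.1% to 99.9%) and 68 of 74 principal cells (91.9%, 83.2% to 97.0%). Type A cells had 60 of 87 (69.0%, 58.1% to 78.5%). These intervals, like all intervals below, cover counting error only.

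Krt8 was the more sparsely detected type II chain. Its mean was 200 TPM in principal cells, 133 TPM in type B, 130 TPM in proximal tubule, 64.8 TPM in type A and 35.1 TPM in non-epithelial cells. The medians were 46.2, 1.95, 3.75, 0.47 and 0.38 TPM in that order. It was found in 34 of 87 type A cells (39.1%, 28.8% to 50.1%), against 59 of 74 principal cells (79.7%, 68.8% to 88.2%). With a cut of 10 TPM in place of 1 TPM, the numbers were 21 and 48. The counts that follow use 1 TPM. In type A cells, 31 had Krt7 without Krt8 and only 5 had Krt8 without Krt7; in type B cells the numbers were 10 and 0, and in principal cells 12 and 3. Proximal tubule cells ran the other way, with 2 cells holding Krt7 alone and 7 holding Krt8 alone. 

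Krt19, the remaining type I chain, was detected in principal cells only: 10 of 74 cells (13.5%, 6.68% to 23.5%) reached 1 TPM, with a median of 34.6 TPM among these 10 and a highest value of 599 TPM. No cell of the other 4 types reached 1 TPM. A count of 0 allows a share of up to 4.15% of type A, 14.8% of type B, 17.6% of proximal tubule and 10.9% of non-epithelial cells (exact Clopper-Pearson upper limits), and no difference between types was tested.

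Taking both kinds of chain together, 64 of 74 principal cells had a type II transcript (Krt7 or Krt8) and a type I transcript (Krt18 or Krt19) of the 4 genes. This held for 48 of 87 type A cells, where 17 had only a type II and 13 only a type I transcript, and for 12 of 23 type B cells, where 10 had only a type II transcript and none only a type I. The basic pair itself, Krt8 with Krt18, was complete in 55 of 74 principal, 29 of 87 type A and 7 of 23 type B cells. Single-cell libraries miss transcripts that are present, so a cell without a value is not shown to lack the chain.

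Among the adhesion genes, Cdh16 was the most widespread. Detection reached all 74 principal cells, 80 of 87 in type A, 22 of 23 in type B and 17 of 19 in proximal tubule. Its mean was 589 TPM in principal cells, 313 TPM in proximal tubule cells, 204 TPM for type B and 189 TPM for type A cells. Cdh1 followed the order of the collecting duct types with means of 197 TPM (principal), 85.7 TPM (type A) and 65.8 TPM (type B), and its lowest mean, 21.7 TPM, in proximal tubule cells. Epcam had a mean of 258 TPM and a median of 210 TPM in type B cells, against means of 148 TPM in principal and 144 TPM in type A cells, whose medians were 61.5 and 49.1 TPM.

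**Figure D1:**
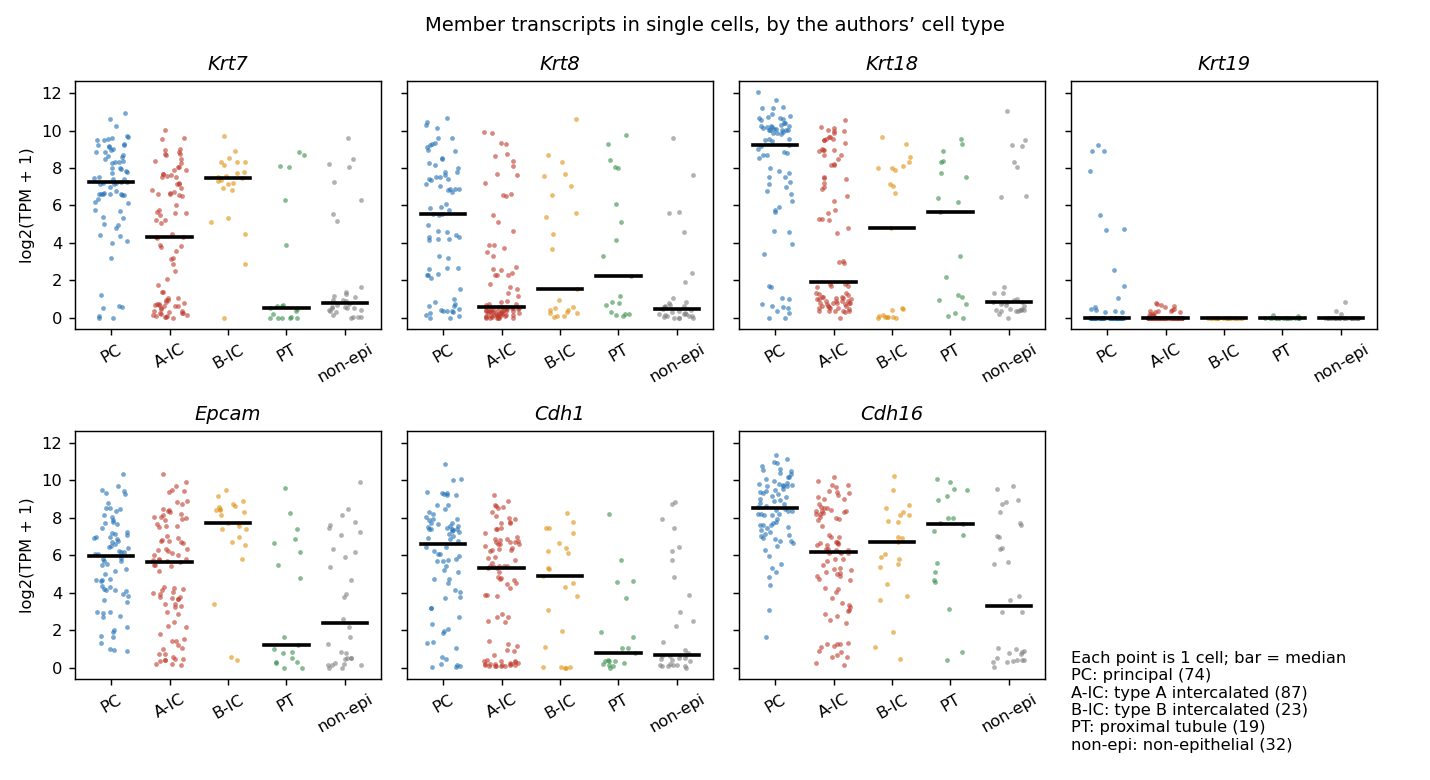
Level of each gene as log2(TPM + 1) in single cells, by the authors' cell type; each point is 1 cell and the bar is the median of the type. Principal cells have the highest median of Krt8, Krt18, Cdh1 and Cdh16, type B cells the highest of Krt7 and Epcam, and points near 0 beside points above 6 show how unevenly single cells of a type were detected.

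Non-epithelial cells give the level of these transcripts in cells that should lack them. Their libraries were as rich as the others, with a median of 2861.5 genes at 1 TPM against 2924 in principal cells, and their myeloid markers (Cd74, Ptprc, C1qa, C1qb, Csf1r) summed to a median of 30615 TPM. Even so, Cdh16 was detected in 20 of 32 (62.5%, 43.7% to 78.9%), Epcam in 19, Krt7 and Cdh1 in 13 each, Krt18 in 12 and Krt8 in 8 (25.0%, 11.5% to 43.4%). With a cut of 10 TPM the numbers were 16 for Cdh16, 15 for Epcam, 8 for Krt7, 9 for Cdh1, 8 for Krt18 and 5 for Krt8. At 1 TPM, the proximal tubule shares of Krt7 (6 of 19, 31.6%) and Epcam (11 of 19, 57.9%) were at or below those of non-epithelial cells. The shares of Krt8 (11 of 19, 57.9%), Krt18 (14 of 19, 73.7%), Cdh1 (9 of 19, 47.4%) and Cdh16 (17 of 19, 89.5%) were above them. The median among the cells with Krt7 was 271 TPM in proximal tubule and 46.0 TPM in non-epithelial cells. Across the 32 cells, Spearman's rho with the principal cell gene Aqp2 ran from 0.18 (Krt18) to 0.55 (Cdh16), and rho with Cd74 from -0.46 (Epcam) to 0.0061 (Krt8). Across the 19 proximal tubule cells, rho with Aqp2 ran from -0.11 (Krt8) to 0.69 (Epcam), with 0.50 for Cdh16. There, rho with the proximal tubule gene Slc34a1 ran from -0.75 (Epcam) to -0.085 (Krt8), with -0.49 for Cdh16. All are descriptions over cells of 1 table, and their part in the detection was not tested.

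Of the 6 genes other than Krt19, the median number detected in a cell was 6 for principal, 5 for type A, 5 for type B, 4 for proximal tubule and 3 for non-epithelial cells. All 6 were present in 48 of 74 principal, 19 of 87 type A, 7 of 23 type B, 2 of 19 proximal tubule and 3 of 32 non-epithelial cells. Over all single cells, Pearson's r of log2(TPM + 1) between pairs of these 6 genes ran from 0.17 (Krt8 with Cdh1) to 0.46 (Krt7 with Cdh16), and within principal cells from -0.12 to 0.27. Such values are weak. By the same measure, over 4685 genes detected in at least 20% of cells, the genes most like each were S100a1 (r = 0.55) for Krt7, Ptges (r = 0.47) for Krt8, the water channel gene Aqp3 (r = 0.48) for Krt18, Mcoln3 (r = 0.33) for Krt19, S100a11 (r = 0.47) for Epcam, Tfcp2l1 (r = 0.44) for Cdh1 and Atp1b1, the sodium pump beta subunit, (r = 0.54) for Cdh16. The points share libraries and cell types.

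Microdissected tubules show the same genes in whole segments. The CCD holds principal and intercalated cells, and the cTAL, the segment that reabsorbs salt without water, holds neither. The dissection was clean at these markers: Slc12a1, Umod and 3 other thick ascending limb genes summed to between 33613 and 53916 TPM in cTAL and between 53.5 and 700.6 TPM in CCD tubules, while 6 principal cell genes summed to between 25196 and 46522 TPM in CCD and between 43.6 and 212.7 TPM in cTAL. Myeloid markers summed to 85.4 to 519.9 TPM in CCD and 22.0 to 639.6 TPM in cTAL. In the same order, proximal tubule markers summed to 5.33 to 406.9 and 0.09 to 134.3 TPM. Endothelial markers summed to 20.0 to 154.9 and 0.13 to 107.5 TPM, and stromal markers to 30.2 to 82.9 and 0.14 to 30.0 TPM. The stromal gene Dcn was called higher in CCD. The part of these markers in the results was not tested. In a whole segment, fewer cells of a type and less RNA per cell cannot be told apart. The table's column names begin with m1 to m7, a prefix that the sources used here do not define and that may mark a mouse; nothing else says which tubules come from separate animals, so p-values measure the spread between tubules.

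Krt18 was the member with the widest gap. It ran from 469.6 to 658.8 TPM in 11 CCD tubules (median 568.9) and from 0.16 to 55.2 TPM in 8 cTAL tubules (median 20.1). The lowest CCD tubule stood above the highest cTAL tubule. The means were 560.2 ± 61.4 TPM (SD, n = 11) and 21.6 ± 16.5 TPM (SD, n = 8), a ratio of 26.0, and the log2 difference was 5.18 (SE 0.46, limma adjusted p = 7.9e-09). With the tubules regrouped in all 75582 ways, the exact two-sided permutation p was 1.32e-05, the smallest this design allows.

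Its partner Krt8 differed far less. Krt8 ran from 201.4 to 309.1 TPM in CCD (median 268.2) and from 27.6 to 131.4 TPM in cTAL (median 81.6), again without overlap. The log2 difference was 1.85 (SE 0.21, limma adjusted p = 3.69e-07). The cTAL tubule with the highest Krt18, 55.2 TPM in m1_cTAL1, had the lowest Krt8, 27.6 TPM, and the one with Krt18 at 0.16 TPM, m4_cTAL1, had Krt8 at 74.6 TPM. Within the cTAL the 2 genes thus did not rank the tubules alike.

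Krt7 was the leading keratin transcript of both segments. It ran from 506.1 to 908.6 TPM in CCD (median 740.7) and from 241.7 to 482.0 TPM in cTAL (median 303.1), with a log2 difference of 1.12 (SE 0.14, limma adjusted p = 1.56e-06) and no overlap. Krt19 was low and scattered: 0 to 44.2 TPM in CCD (median 23.0), with 2 tubules listed at 0, and 0.05 to 29.6 TPM in cTAL (median 6.90). Its log2 difference of 1.29 (SE 0.80, limma adjusted p = 0.30) was within the spread between tubules, but with sample weights it was 1.90 (limma adjusted p = 0.0055).

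Both cadherins were higher in the CCD. Cdh16 ran from 1833 to 4509 TPM in CCD (median 2829) and from 1120 to 1785 TPM in cTAL (median 1506), without overlap, a log2 difference of 1.04 (SE 0.13, limma adjusted p = 1.5e-06). Cdh1 ran from 190.6 to 729.5 TPM in CCD (median 508.6) and from 121.0 to 362.7 TPM in cTAL (median 211.0), a difference of 1.03 (SE 0.23, limma adjusted p = 0.0024), and here the groups overlapped. Epcam ran from 428.0 to 712.8 TPM in CCD and from 351.9 to 647.0 TPM in cTAL; its log2 difference of 0.24 (SE 0.12, limma adjusted p = 0.20) was not called, and was 0.02 after quantile normalization.

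In order of mean level per length, CCD tubules had Cdh16, Krt7, Epcam, Krt18, Cdh1, Krt8 and Krt19, and cTAL tubules had Cdh16, Epcam, Krt7, Cdh1, Krt8, Krt18 and Krt19. In the CCD the ranges of Krt7, Epcam, Krt18 and Cdh1 overlapped; Krt8 overlapped only with Cdh1, and Cdh16 stood above all others. In the cTAL, Cdh16 again stood above all others, and each of the other genes overlapped with its neighbour in the order.

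The call rule (adjusted p under 0.05) took 5 of the 7 genes as higher in the CCD and none as lower, against a background of 18.7% of 13520 genes called, 13.2% higher and 5.5% lower. The median difference of all genes tested was 0.31 toward the CCD. Epcam lay 0.07 below that median, while the 5 called genes lay 0.72 to 4.87 above it. Quantile normalization, which brought the median to -0.03 and the share of calls that were higher from 70.5% to 49.5%, left the same count of 5. For 6 of the m prefixes both segments were present: Krt7, Krt8, Krt18, Cdh1 and Cdh16 were higher in the CCD in 6 of 6, with an exact sign-flip p of 0.03125 each, the smallest that 6 prefixes allow. Without m2_CCD2, the CCD tubule with the fewest genes at 1 TPM (7621), or without m1_cTAL1, the call count was also 5, and the Krt18 difference was 5.17 and 5.45.

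**Figure D2:**
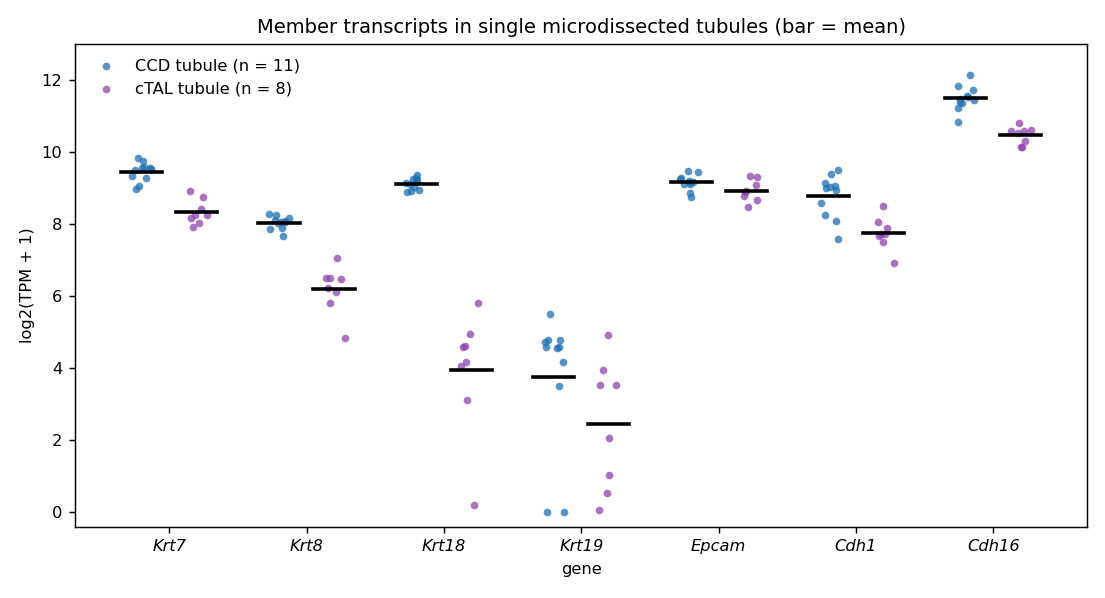
Level of each gene as log2(TPM + 1) in single microdissected tubules; each point is 1 tubule (11 CCD, 8 cTAL) and the bar is the group mean. Krt18 falls from a tight group of CCD tubules, all at or above 469.6 TPM, to a wide spread of cTAL tubules at or below 55.2 TPM, while the 2 groups of Epcam lie on top of each other.

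Since each filament pairs the 2 kinds of chain, keratin transcripts were also summed by kind, over 25 type I and 21 type II genes. Keratin genes whose symbol ends in a letter, and Krt222, were not in the sums. The measure was chosen after the values of the 7 genes were seen and is given without a test. CCD tubules had a mean sum of 694.6 TPM for type I and 1042 TPM for type II, and the ratio of type II to type I ran from 1.06 to 1.92. In cTAL tubules the sums were 36.1 TPM for type I and 410.7 TPM for type II, and the ratio ran from 5.50 to 26.9, above every CCD tubule. No other type I gene in the sum filled the place of Krt18 there: in the cTAL, Krt18 made up 59.7% of the type I sum, Krt19 24.3% and Krt10 15.8%, at means of 21.6, 8.76 and 5.69 TPM. Krt7 alone made up 80.4% of the cTAL type II sum. In the CCD, Krt18 held 80.7% and Krt23 15.7% of type I, and Krt7 68.2%, Krt8 25.4% and Krt80 6.31% of type II. The sums are of transcripts and say nothing of the amount of protein.

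**Figure D3:**
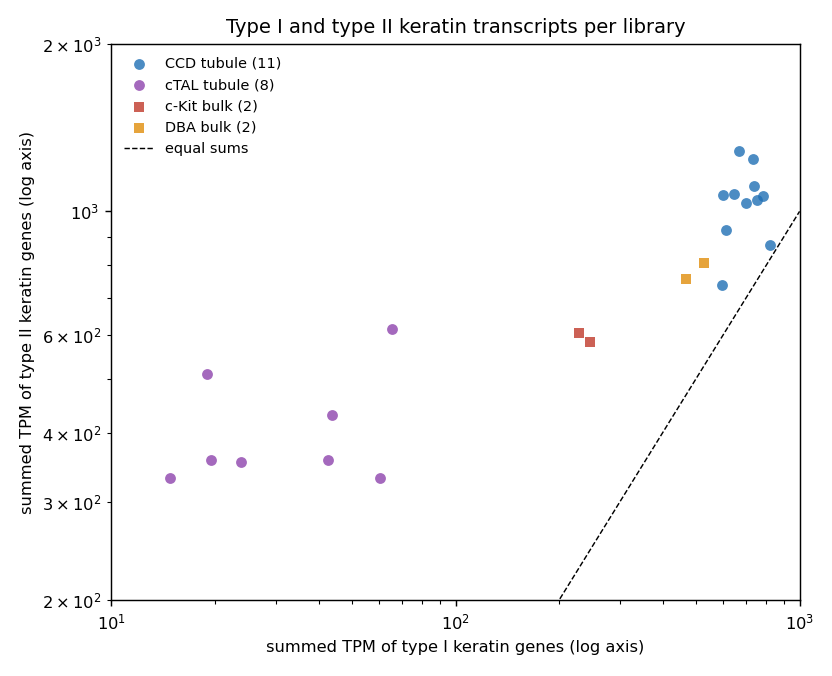
Summed TPM of type I keratin genes (horizontal, log axis) against type II keratin genes (vertical, log axis) in each library; circles are tubules, squares bulk sorted samples, and the dashed line marks equal sums. The 8 cTAL tubules lie far to the left at type I sums of 14.8 to 65.2 TPM, while CCD tubules lie close to the line; the 2 tables were normalized separately.

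The bulk samples sorted on c-Kit, a receptor of intercalated cells here, and on DBA, a lectin commonly used for the collecting duct, address how intercalated and principal cells differ. The sort held at the markers: 6 principal cell genes summed to 2519 and 3392 TPM in the c-Kit samples and to 22287 and 24841 TPM in the DBA samples, and 3 type A genes to 2749 and 2793 TPM against 52.7 and 63.1 TPM. Among these 3 genes, Kit encodes the sorted receptor and so is no separate check. The others, Slc4a1 and Aqp6, had means of 1727 and 287.1 TPM in c-Kit and 31.6 and 8.08 TPM in DBA samples. Myeloid markers moved with the groups too, at 3769 and 3996 TPM in c-Kit and 12469 and 12992 TPM in DBA samples, as did proximal tubule markers, at 1394 and 1557 against 3011 and 3110 TPM. The sum of 3 stromal markers went the other way, at 37.6 and 43.57 against 21.83 and 22.55 TPM. Of these 3, Dcn was called higher and Pdgfrb lower in c-Kit samples. The part of all these markers in the results was not tested. Nothing says that the 2 samples of a group came from separate mice.

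The Krt8 and Krt18 pair was lower together in the c-Kit samples. Krt8 stood at 133.2 and 133.3 TPM in c-Kit and at 317.5 and 293.9 TPM in DBA samples, a log2 difference of -1.19 (SE 0.06, limma adjusted p = 2.92e-05). Krt18 stood at 206.6 and 200.8 TPM in c-Kit and at 457.1 and 396.2 TPM in DBA samples, a difference of -1.06 (SE 0.08, limma adjusted p = 1.15e-04). Krt7 moved less, from 477.7 and 448.7 TPM in DBA to 347.9 and 364.0 TPM in c-Kit, a difference of -0.38 (SE 0.06, limma adjusted p = 0.0032). The Krt7 to Krt8 ratio of TPM was accordingly 2.61 and 2.73 in c-Kit and 1.505 and 1.527 in DBA samples.

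Cdh16 stood at 1300 and 1205 TPM in c-Kit and 2354 and 2209 TPM in DBA samples, a log2 difference of -0.87 (SE 0.07, limma adjusted p = 1.46e-04). Cdh1 stood at 310.5 and 290.3 TPM in c-Kit and 440.1 and 409.6 TPM in DBA samples, a difference of -0.50 (SE 0.07, limma adjusted p = 0.0013). Epcam went the other way: 428.3 and 421.6 TPM in c-Kit against 330.2 and 314.9 TPM in DBA samples, a difference of 0.40 (SE 0.06, limma adjusted p = 0.0018). Krt19, at 8.09 and 4.24 TPM in c-Kit and 7.31 and 8.83 TPM in DBA samples, overlapped and was not called (limma adjusted p = 0.29); without c-Kit replicate 1 its difference was -0.79 (limma adjusted p = 0.033) and without c-Kit replicate 2 it was 0.0083 (limma adjusted p = 0.97), each time with the lone c-Kit sample assumed to vary like the DBA pair.

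In this comparison 5 of the 7 genes were called lower and 1 higher in c-Kit samples, against a background of 44.3% of 14341 genes called, 28.1% lower and 16.1% higher. All genes tested had a median difference of -0.11, and quantile normalization, which moved it to 0.02 and the share of calls that were higher from 36.5% to 49.9%, left the same 5 lower and 1 higher. In single cells, the means of Krt8, Krt18, Krt7, Cdh1 and Cdh16 were likewise higher in principal than in type A cells, and those of Epcam were nearly equal; the tables were normalized separately and were not tested against each other.

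The GFP samples compare cells that carry the reporter with the rest of the sorted kidney cells. The GFP-negative samples held proximal tubule markers (6 genes, 15419 and 15980 CPM, counts scaled to library size), which were at 1838 and 2921 CPM in the GFP-positive samples. Intercalated cell genes went from 28.1 and 48.6 CPM in GFP-negative to 2120 and 3075 CPM in GFP-positive samples. These 4 genes include Atp6v1b1, the gene in the name of the strain, at means of 13.2 and 414.1 CPM in that order. Thick ascending limb genes were high in both, at 8330 and 8641 CPM and at 9881 and 14797 CPM, and 6 principal cell genes rose from 190.2 and 215.6 to 771.9 and 1355 CPM, so neither group is 1 cell type. Distal convoluted and connecting tubule genes were also higher in GFP-positive samples, at 1142 and 1758 CPM against 123.6 and 152.0 CPM, with 4 of 4 called. Myeloid markers (5 of 5 called lower), endothelial markers (3 of 3) and stromal markers (2 of 3) went the other way, at sums of 77.0 to 78.2, 24.4 to 47.2 and 9.67 to 11.4 CPM against 389.9 to 780.9, 97.7 to 255.6 and 49.3 to 73.6 CPM. The part of these cells in the differences was not tested.

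Krt7 and Krt18 were higher in GFP-positive samples and Krt8 was not. Krt7 went from 15.9 and 14.3 CPM in GFP-negative to 98.7 and 108.8 CPM in GFP-positive samples, a log2 difference of 2.78 (SE 0.19, edgeR adjusted p = 4.68e-05). Krt18 went from 15.7 and 17.3 CPM to 55.3 and 67.9 CPM, a difference of 1.90 (SE 0.21, edgeR adjusted p = 2.74e-04). Krt8 stood at 36.2 and 48.0 CPM in GFP-negative and at 21.4 and 29.5 CPM in GFP-positive samples, so its values were lower there, with a difference of -0.73 (SE 0.25) that missed the threshold (edgeR adjusted p = 0.053). It was called in 8 of 11 settings, counting the fit above that missed. The 8 were DESeq2 (adjusted p = 0.022), RLE size factors, no filter and a stricter filter on low counts, the deposited RPKM values (limma adjusted p = 0.038), the fit without GFP-negative replicate 1, the fit without GFP-positive replicate 2, and the replicate number as a block (-0.73, edgeR adjusted p = 0.013). It was not called without GFP-negative replicate 2 (edgeR adjusted p = 0.26) or GFP-positive replicate 1 (edgeR adjusted p = 0.21). The RPKM columns are headed as a first and a second experiment, which the titles of the samples do not mention. Neighbouring Krt18 and Krt8 thus had differences of opposite sign.

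The RPKM values (reads scaled to gene length and library size), which allow levels of different genes to be compared, put Krt8 above Krt7 in both GFP-negative samples and Krt7 above Krt8 in both GFP-positive ones. Krt8 was at 26.9 and 31.9 RPKM and Krt7 at 3.46 and 6.17 RPKM in GFP-negative samples, against 9.62 and 11.7 RPKM for Krt8 and 47.4 and 26.6 RPKM for Krt7 in GFP-positive samples. The ratio of Krt7 to Krt8 was 0.13 and 0.19 in the first group and 4.93 and 2.26 in the second. Read counts, not scaled to length, had the same order. GFP-negative samples had 680 and 488 reads of Krt7 and 1545 and 1641 of Krt8. GFP-positive samples had 3674 and 4123 reads of Krt7 and 797 and 1118 of Krt8. The size of the ratios depends on the table: Krt7 differed more between the 2 GFP-positive samples in RPKM than in CPM (98.7 and 108.8). Krt80 added to the type II transcripts of the GFP-positive samples, at 33.1 and 30.4 RPKM against 2.61 and 1.40 RPKM, so that Krt7 and Krt8 together made up 58.5% of their type II sum, against 89.9% in GFP-negative samples.

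Epcam went from 119.3 and 118.8 CPM in GFP-negative to 319.1 and 393.7 CPM in GFP-positive samples, a log2 difference of 1.58 (SE 0.18, edgeR adjusted p = 3.19e-04). Cdh1 went from 330.3 and 295.8 CPM to 1032 and 1182 CPM, a difference of 1.82 (SE 0.19, edgeR adjusted p = 2.07e-04). Cdh16 went from 422.7 and 527.4 CPM to 721.9 and 1074 CPM, a difference of 0.92 (SE 0.24, edgeR adjusted p = 0.019). The call was lost without GFP-negative replicate 1 (0.76), without GFP-positive replicate 2 (0.61) and in the RPKM values (0.64, limma adjusted p = 0.15). Among the single cells, Cdh16 was detected in 17 of 19 proximal tubule and 20 of 32 non-epithelial cells. Krt19 rested on few reads, 31 and 62 in GFP-negative and 109 and 465 in GFP-positive samples. Its difference of 2.59 (SE 0.74, edgeR adjusted p = 0.028) was 1.21 without GFP-positive replicate 2 (edgeR adjusted p = 0.35), and in the RPKM table, where 1 GFP-positive column is listed at 0, it was -0.29 (limma adjusted p = 0.89).

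By the call rule, 6 of the 7 genes were higher in GFP-positive samples and none lower, against a background of 32.6% of 15671 genes called, 15.2% higher and 17.3% lower. Reads in genes ran from 35530885 to 40815091 in the 4 samples. Of the 6 calls, those of Krt19 and Cdh16 were the ones that leaving out a sample removed, as given above.

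**Figure D4:**
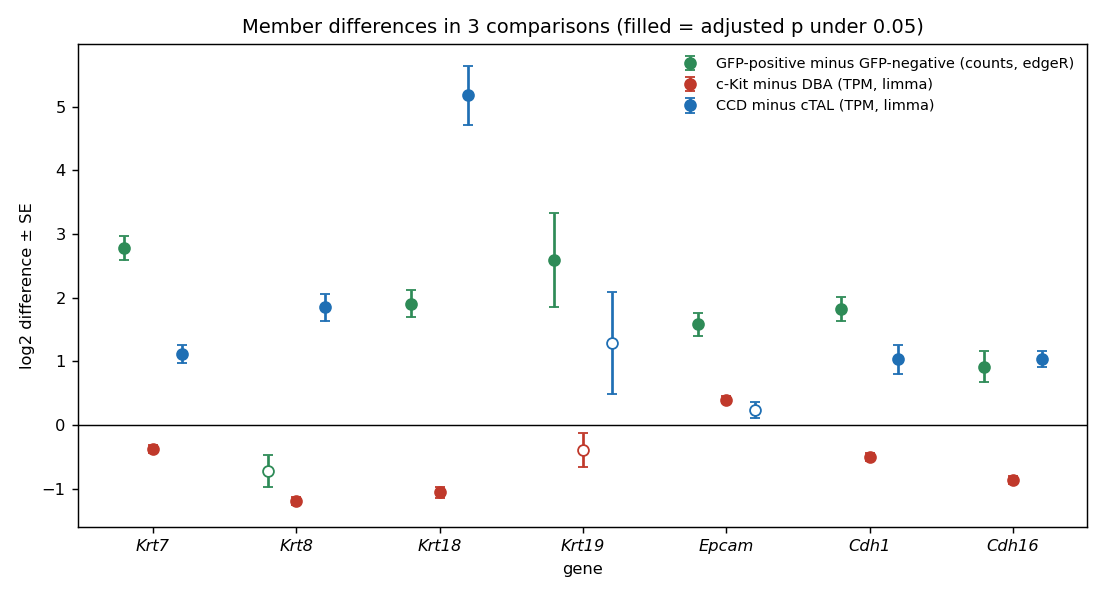
Log2 difference of each gene in the 3 comparisons, with the standard error as bars; filled points have an adjusted p under 0.05. Krt18 reaches 5.18 between CCD and cTAL, Krt8 lies below 0 in the GFP comparison beside Krt18 at 1.90, and Epcam alone lies above 0 between c-Kit and DBA.

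Of 10 other keratins on the list, Krt23 and Krt80 carried the differences. Krt23, a type I chain, ran from 82.6 to 199.1 TPM in CCD and from 0 to 0.19 TPM in cTAL tubules (log2 difference 6.60, SE 0.25, limma adjusted p = 2.24e-15). It stood at 23.8 and 17.3 TPM in c-Kit and 54.6 and 55.9 TPM in DBA samples (-1.40, SE 0.15, limma adjusted p = 4.73e-04), and 24 of 74 principal cells but 1 of 87 type A cells had it at 1 TPM. Krt80, a type II chain, went the other way between the sorted samples, at 100.8 and 107.5 TPM in c-Kit and 13.4 and 14.1 TPM in DBA samples (2.83, SE 0.08, limma adjusted p = 4e-06). Of the type A cells, 9 of 87 reached 1 TPM of Krt80 (mean 4.06 TPM), and 5 of the 23 type B cells did (mean 1.63 TPM). In tubules, Krt80 ran from 27.9 to 115.9 TPM in CCD and from 0 to 8.20 TPM in cTAL (4.92, SE 0.49, limma adjusted p = 4.64e-08). Both were also higher in GFP-positive samples, Krt23 by 3.82 (SE 0.39, edgeR adjusted p = 1.87e-04; limma adjusted p = 0.15 in the RPKM values) and Krt80 by 3.26 (SE 0.34, edgeR adjusted p = 2.07e-04). No other keratin on the list was called in any of the 3 comparisons, in which 6, 3 and 3 of the 10 had values high enough to be tested.

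The desmosome and linker list, the proteins that anchor keratin filaments, had 7 of its 10 genes called higher in CCD and none lower, against 13.2% of all genes called higher, with a median log2 difference of 1.76 against 0.31 for all genes tested. Dsp ran from 12.4 to 53.9 TPM in CCD and from 2.36 to 18.4 TPM in cTAL (1.79, SE 0.38, limma adjusted p = 0.0013). The filament linker periplakin (Ppl) ran from 3.06 to 27.8 TPM and from 0 to 1.36 TPM (3.37, SE 0.40, limma adjusted p = 7.25e-07). The desmosomal cadherin Dsc2 was at or below 0.04 TPM in all 8 cTAL tubules and at a median of 17.6 TPM in CCD (3.55, SE 0.52, limma adjusted p = 1.52e-05). Between c-Kit and DBA samples 5 of the 10 were lower (28.1% of all genes), among them Dsp by -1.13 (SE 0.14) and Ppl by -1.66 (SE 0.15), and 2 higher (16.1%), Pkp2 and Plec. In GFP-positive samples 6 were higher (15.2% of all genes), Dsc2 by 4.17 (SE 0.36), Ppl by 2.55 (SE 0.22) and Dsp by 2.45 (SE 0.19) among them, and 1, Perp, lower.

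Of catenins and other adherens junction genes, 2 of 7 tested between tubules were called higher in CCD, against 13.2% of all genes, and none lower; the median log2 difference was 0.55, against 0.31 for all genes. They were Ctnna1 (alpha-catenin, 0.79, SE 0.22, limma adjusted p = 0.013) and Nectin4 (2.25, SE 0.55, limma adjusted p = 0.0044). Between c-Kit and DBA samples 2 of 7 were higher (16.1% of all genes) and 2 lower (28.1%), and in GFP-positive samples 5 of 8 were higher (15.2%) and 1 lower (17.3%).

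Of 10 other cadherins, 5 could be tested between tubules, where 2 were called lower in CCD (5.5% of all genes) and 1 higher (13.2%). Pcdh1, a protocadherin, was the higher one, with a median of 6.77 TPM in CCD and 0.07 TPM in cTAL (log2 difference 2.46, SE 0.58, limma adjusted p = 0.0036). Cdh6, a classical cadherin of the nephron, ran from 0 to 5.73 TPM in CCD and from 6.52 to 34.8 TPM in cTAL (log2 difference -3.29, SE 0.49, limma adjusted p = 2.38e-05), and Cdhr5, a cadherin of brush border microvilli, ran from 0.24 to 26.2 TPM and from 47.0 to 215.8 TPM (-4.71, SE 0.53, limma adjusted p = 3.39e-07). Both were lower in c-Kit than in DBA samples, by -2.35 (SE 0.20) and -1.17 (SE 0.09). There 6 of 8 tested cadherins were lower (28.1% of all genes) and none higher (16.1%). Among the 6, Cdh11 and Cdh2 were low, with means of 0.265 and 0.545 TPM in c-Kit and 1.86 and 4.38 TPM in DBA samples. In single cells Cdhr5 reached 1 TPM in 10 of 19 proximal tubule cells and in 2 of 74 principal cells. In GFP-positive samples 4 of 9 were lower (17.3% of all genes), with Cdhr5 at -1.63 (SE 0.25, edgeR adjusted p = 0.0014), and only Cdh3 was higher (15.2% of all genes).

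Of 8 genes on the list of Epcam partners, 5 of 7 tested were called higher in CCD tubules, against 13.2% of all genes, and none lower. Between c-Kit and DBA samples 5 of 8 were higher (16.1% of all genes) and 2 lower (28.1%). In GFP-positive samples 5 of 8 were higher (15.2%) and 2 lower (17.3%). Cldn7, which binds Epcam, ran from 366.5 to 570.8 TPM in CCD and from 73.1 to 200.2 TPM in cTAL (1.76, SE 0.17, limma adjusted p = 2.88e-08). St14, the membrane protease matriptase that can cleave Epcam, was at 348.3 and 358.3 TPM in c-Kit and 147.5 and 143.6 TPM in DBA samples (1.27, SE 0.06, limma adjusted p = 1.54e-05) and higher in GFP-positive samples by 2.05 (SE 0.21, edgeR adjusted p = 1.74e-04).

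Of 9 transcription and splicing regulators of epithelial genes, Elf5 alone was called between tubules, at 3.86 to 22.0 TPM in CCD and 0 to 0.13 TPM in cTAL (log2 difference 3.13, SE 0.32, limma adjusted p = 9.79e-08). It was at 1.34 and 1.49 TPM in c-Kit and 10.1 and 13.3 TPM in DBA samples (-2.38, SE 0.19, limma adjusted p = 1.54e-04). Grhl2, an activator of Cdh1 in other epithelia, went from 11.7 and 16.1 CPM in GFP-negative to 97.2 and 100.9 CPM in GFP-positive samples (2.83, SE 0.22, edgeR adjusted p = 6.5e-05), but was not called between c-Kit and DBA (limma adjusted p = 0.12) or between tubules (limma adjusted p = 0.32). In GFP-positive samples 4 of the 9 were higher (15.2% of all genes) and 3 lower (17.3%). In c-Kit samples 4 were lower (28.1% of all genes) and none higher (16.1%). Between tubules, where Elf5 alone was called, the share over all genes was 18.7%.

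Of 5 repressors of epithelial genes, among them Snail and Zeb factors, whose E-box letters were searched for above without a test of binding, Zeb2 was called in both sorted comparisons. The GFP-negative samples lay between 88.4 and 123.0 CPM and the GFP-positive ones between 12.6 and 20.0 CPM (log2 difference -2.70, SE 0.28, edgeR adjusted p = 1.76e-04). The c-Kit samples lay between 5.94 and 8.09 TPM and the DBA samples between 17.6 and 17.7 TPM (-1.23, SE 0.16, limma adjusted p = 0.0012). Myeloid markers fell with it, with 5 of 5 called lower in each of the 2 comparisons; their part in the Zeb2 difference was not tested. Twist1 was called higher in GFP-positive samples and in CCD tubules, but at low levels. Its means were 0.83 CPM in GFP-positive and 0.012 CPM in GFP-negative samples. In tubules they were 4.02 TPM (CCD) and 0.43 TPM (cTAL), and the tubule groups overlapped.

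Vimentin (Vim), the intermediate filament of non-epithelial cells, was nearly absent from the epithelial single cells: 1 of 87 type A, 0 of 23 type B, 1 of 74 principal and 1 of 19 proximal tubule cells had it at 1 TPM, against 14 of 32 non-epithelial cells with a mean of 137 TPM. It was lower in GFP-positive samples, between 14.3 and 16.3 CPM against 38.3 to 42.0 CPM (log2 difference -1.39, SE 0.22, edgeR adjusted p = 0.0016; limma adjusted p = 0.054 in the RPKM values), where myeloid, endothelial and stromal markers were lower too. Between c-Kit and DBA samples it was called higher, at 42.1 to 43.2 against 34.9 to 35.6 TPM (0.27, SE 0.08, limma adjusted p = 0.031), in 7 of 12 settings. There 5 of 5 myeloid and 2 of 3 endothelial markers were called lower in c-Kit samples. Of 3 stromal markers, Dcn was called higher and Pdgfrb lower, with sums of 37.6 to 43.57 TPM in c-Kit and 21.83 to 22.55 TPM in DBA samples. The part of these markers was not tested. In tubules its median was 0.11 TPM in CCD and 0 in cTAL.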

How the data were processed

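Counts per gene for the GFP samples were deposited as whole numbers and, per the file headers and names, come from HTSeq-count on RefSeq genes of mm10; between 66.7% and 72.8% of the counted reads fell in no gene and stayed out of library sizes. TPM values for single cells, c-Kit and DBA samples and tubules, and RPKM values for the GFP samples, were deposited as the authors computed them; the submitters' processing notes name STAR 2.5.1b, RSEM 1.2.31, Seurat and GRCm38.p5 with no role or order. The tubule table names no unit, and its columns sum to the same total as the other TPM tables. Depth behind TPM and RPKM is unknown, and 0 columns were unused.

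Counts were tested with edgeR 4.0.16 (quasi-likelihood) and TPM with limma 3.58.1 on log2(TPM + 1), keeping genes whose mean TPM was 1 or more; fold changes of low genes are understated on that scale. Benjamini-Hochberg adjustment ran over all genes tested, with a threshold of 0.05. R 4.3.3, DESeq2 1.42.0, Python 3.11.15 and scipy 1.17.1 were used, and the tests were tested on simulated data. Cell types are the authors' column names, no cells were filtered and no doublet caller was run. Genes named are the 7 members, genes of the lists, and for each member the genes most correlated with it over the cells; list genes given with values were picked after those values were seen. The members and lists were chosen with earlier results of these data known. Values of 1 list gene are not reported here.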

Additional observations from a re-analysis of the deposited data

How the results depend on the processing

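Of 223 values of the 7 genes under alternatives, 207 kept their direction and call. Called genes numbered 1466 in the deposited RPKM values of the GFP samples against 5101 in the counts, and 4401 between tubules with sample weights against 2526. Leaving out 1 sample gave 3458 to 5701 called genes between c-Kit and DBA against 6348 (3600 without DBA replicate 1 and 3458 without DBA replicate 2), and 3616 to 4211 in the GFP comparison. No value that turned sign was called after the turn: in GFP samples Krt19 at -0.29 and Cdh6 at -0.22 in the RPKM values, and Cdh6 at -0.18 without GFP-positive replicate 1 (up to 1.16 without GFP-positive replicate 2); between c-Kit and DBA Krt19 at 0.0083 without c-Kit replicate 2 (down to -0.79, and then called, without c-Kit replicate 1); and between tubules Zeb2 at -0.24 and Vim at -0.17 with quantile normalization. The cause was not tested. With the replicate number as a block, 5897 genes were called in the GFP comparison, 7 of the 7 genes among them (Krt8 with edgeR adjusted p = 0.013), and 6271 between c-Kit and DBA, 6 of the 7 among them. Same-numbered samples had deviations correlated at r = 0.14 and r = 0.026, and the titles do not say that a number marks a shared experiment, so both fits are given. With the column prefix as a block, an alternative chosen after seeing the data like the 3 others on tubules, 2588 genes and 5 of the 7 were called between tubules; 1823 genes and 5 of the 7 were called with means per prefix, 3078 genes without m2_CCD2 and 2356 without m1_cTAL1. Between c-Kit and DBA, Cldn7 was called in 8 of 12 settings (limma adjusted p up to 0.087) and Vim in 7 of 12 (up to 0.15); both lost the call with no variance trend and without c-Kit replicate 1, DBA replicate 1 or DBA replicate 2, and Vim also without c-Kit replicate 2. Krt19 rests on 31 to 465 reads in the GFP samples. With detection at 10 TPM in place of 1 TPM, 48 of 74 principal cells had Krt8, against 59. Epcam went from 72 to 60 of these cells and Cdh1 from 67 to 57. Each of these shares fell below its interval at 1 TPM.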
